A study of Mus musculus with 20 samples.

Results

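The 13 mRNAs encoded by mitochondrial DNA (mtDNA) were followed here together with 23 nuclear genes whose products copy mtDNA, transcribe it, or process and degrade its transcripts, 36 genes of the 34083 genes quantified. The members were taken by name, and their estimated counts and TPM values (transcripts per 1000000, a level per length) were summed over transcripts in each of 20 libraries. The cells were N2A, a mouse neuroblastoma line grown in glass-bottom 384-well plates, and RNA was taken 1 h after whole wells had been scanned with a near-infrared laser. Unexposed control wells (NC) gave 3 libraries in batch 1 and 2 in batch 2. A single laser was used in batch 1, with 3 libraries for each setting. I0-E0 had 20 mW and 2 µs per pixel, which gives an intensity of 47.7 mW/µm2 and a fluency of 9.54 J/cm2. I0-E2 had the same power for 10 µs (47.7 J/cm2), and I0-E4 for 20 µs (95.4 J/cm2). I2-E2 had 100 mW for 2 µs (239 mW/µm2 and 47.7 J/cm2). I3-E3-SRS, with 3 libraries in batch 2, had 2 lasers together at 65 mW for 2 µs (397 mW/µm2 and 79.4 J/cm2), a setting close to visible burning used for stimulated Raman scattering. The labels do not say whether the libraries of a group came from different cultures, so each p-value refers to the variation among these libraries, and that variation may be technical.

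Mammalian mtDNA is a small circle that encodes subunits of respiratory complexes I, III, IV and V and the RNAs needed to translate them. Both strands are transcribed from the control region as long polycistronic RNAs, which are cut mostly at the tRNAs that lie between the coding regions. Most of the mRNAs then receive short poly(A) tails, by which poly(A) libraries catch them; mt-Nd6 mRNA is known as the exception without a regular tail. Every protein of this machinery is made from a nuclear gene and imported.

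The nuclear genome holds old copies of mtDNA, and their sequence decides how far reads of each mitochondrial mRNA can be told apart. On chromosome 1 (GRCm38, minus strand, chr1:24611535-24616197), 7 neighbouring pseudogenes copy mt-Co1 to mt-Nd4. Of the 31-base words of an mRNA, the percentage found in no other annotated gene was 100% for mt-Nd1, 93.4% for mt-Cytb, 92.6% for mt-Nd6, 92.5% for mt-Atp8, 86.5% for mt-Nd2 and 83.2% for mt-Nd5. It was 37.2% for mt-Nd4, 36.1% for mt-Co1, 1.89% for mt-Nd3, 1.12% for mt-Nd4l, 0.461% for mt-Atp6, 0.133% for mt-Co3 and 0% for mt-Co2. The aligned stretches of mt-Co2 (681 bases, with Gm28661), mt-Atp6 (678 bases, with Gm10925), mt-Co3 (783 bases, with Gm28437), mt-Nd4l (294 bases, with Gm10222) and mt-Nd4 (876 bases, with Gm28439) were identical to the copy at every base. mt-Nd3 (chrM:9459-9806) and Gm28438 (chr1:24612775-24613119) were identical at 344 of 345 bases. Their difference is the substitution T3C, with positions counted from the first base of the mRNA and the mRNA's base given first. It is in capitals in their first 60 bases, shown because no other aligned base separates this pair.
mt-Nd3: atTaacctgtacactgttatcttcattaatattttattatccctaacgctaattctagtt
Gm28438: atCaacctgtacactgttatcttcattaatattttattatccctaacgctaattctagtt

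mt-Co3 (chrM:8607-9390), a subunit of cytochrome c oxidase, is 784 bases long. Its copy Gm28437 (chr1:24613189-24613971), as annotated, lacks the last of them, the capital in the mRNA's last 60 bases. The annotated pair is thus separated by its end alone, and the genome beyond the copy was not compared.
mt-Co3: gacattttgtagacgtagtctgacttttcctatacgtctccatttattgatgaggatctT
Gm28437: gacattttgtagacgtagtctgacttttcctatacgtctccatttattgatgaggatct

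mt-Co1 (chrM:5328-6872), the catalytic subunit of the same enzyme, matched Gm29216 (chr1:24615706-24616197) at 486 of 492 bases. All 6 differences, T1056A, C1057T, A1059G, A1060G, C1062A and A1066T, lie in the first bases of the copy, in capitals here, and the rest of the aligned 3′ part of the mRNA was identical.
mt-Co1: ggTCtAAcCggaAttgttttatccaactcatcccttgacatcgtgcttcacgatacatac
Gm29216: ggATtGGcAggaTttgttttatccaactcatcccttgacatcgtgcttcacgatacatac

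Mitochondrial reading frames also overlap each other on shared mRNAs. The last 43 bases of mt-Atp8 (chrM:7766-7969) are the first 43 of mt-Atp6 (chrM:7927-8607), in capitals here after the bases that precede them, and mt-Nd4l (chrM:9877-10173) shares 7 bases with mt-Nd4 (chrM:10167-11544), again in capitals.
mt-Atp8 to mt-Atp6: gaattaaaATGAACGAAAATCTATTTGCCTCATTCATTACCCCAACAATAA
mt-Nd4l to mt-Nd4: ctactacaATGCTAA

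mt-Nd6 (chrM:13552-14070), the only one of the 13 on the minus strand, overlaps the end of mt-Nd5 (chrM:11742-13565) by 14 bases. Whether reads were counted by strand is not given in the sources used here.

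The division of reads between mRNA and copy differed between the batches. For mt-Co3, Gm28437 received 0.000116% to 0.809% of the pair's reads in the 15 libraries of batch 1 and 85.7% to 89.9% in the 5 libraries of batch 2. mt-Co3 itself had 16199, 13582 and 10686 reads in NC of batch 1 and 1305 and 2324 in NC of batch 2, whereas the pair had 16202, 13629 and 10687 against 12666 and 20080. The value assigned to mt-Co3 in batch 2 is a small part of its pair, and the batches cannot be compared for it. The pair's sum was a whole number within 0.01 in 20 of 20 libraries, and the estimate for mt-Co3 alone was whole in 0 of 20.

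For mt-Nd3, Gm28438 received 57.3% to 71.4% in batch 1. In batch 2 it received 61.1% and 40.4% in NC but 6.74%, 36.5% and 23.9% in I3-E3-SRS, so it was lower in every I3-E3-SRS library than in both controls. The copy's part was 1.09% to 23.5% in batch 1 and 18.8% to 32.7% in batch 2 for mt-Co2, 6.75% to 28.98% and 2.87% to 23.6% for mt-Nd4, and 0.760% to 5.54% and 5.32% to 10.04% for mt-Co1. Gm10925 took 0.0387% to 3.44% of the reads of mt-Atp6 and its copy in batch 1 and 28.6% in NC replicate 1 of batch 2, where the other libraries had at most 3.97%. Gm10222 had 0 reads in every library, and 12 further nuclear copies had at most 10.5 in any. For several of the results that copies touch, the value with their counts added to the mRNA is given beside the value as assigned.

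**Figure D1:**
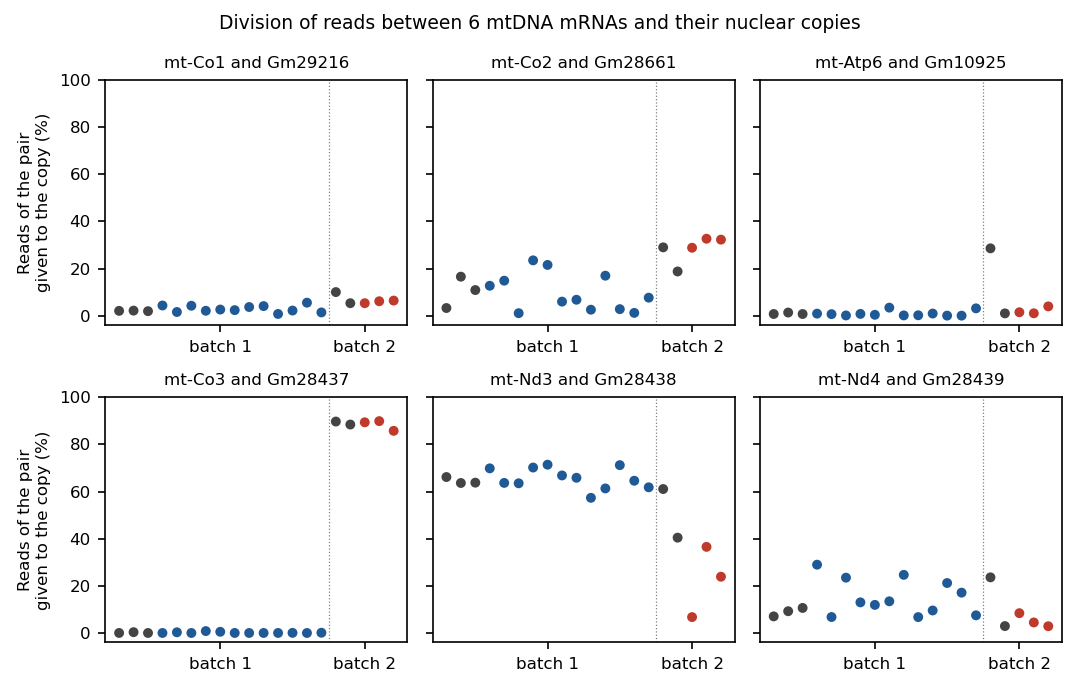
Reads assigned to the nuclear copy, in percent of the reads of the mtDNA mRNA and its copy together, for 6 pairs; each point is 1 library. For mt-Co3 the copy holds at most 0.809% in batch 1 and at least 85.7% in batch 2.

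Library totals were 5473588 to 12698770 estimated counts. NC replicate 1 of batch 2 was the shallowest and stood apart: the summed TPM of 14 neuroblastoma identity genes was 1144 in it and 1881 to 2038 in the other 19 libraries, and its counts differed from those of NC replicate 2 with a chi-square of 19.9 per degree of freedom, against 2.42 to 9.62 for other replicate pairs. Hand2, a transcription factor of sympathetic neuroblasts, was at 137 to 350.0 TPM. The marker lists of fibroblasts, macrophages, epithelial, endothelial and erythroid cells each summed to at most 13.7 TPM in any library, with Lyz2, Krt18, Hbb-bt and Hba-a1 at 0 in every library. With edgeR's quasi-likelihood test at an adjusted p under 0.05, 0 genes were called in each of the 7 comparisons. limma (trend and voom) also called 0, and DESeq2 called 0 to 15 genes, none of them a member.

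Levels per unit length are given for each annotated reading frame, although mt-Atp8 shares an mRNA with mt-Atp6 and mt-Nd4l with mt-Nd4. mt-Atp6, a subunit of the membrane part of ATP synthase, had the highest level of the 13. In reads per kilobase of annotated length per 1000000 counts, with copies included, its median level was 3226 in batch 1 (range 2455 to 4017) and 3815 in batch 2. It was followed in batch 1 by mt-Co2 at 2761, mt-Cytb (the complex III subunit) at 2435, mt-Co3 at 2108, mt-Nd3 at 1824 and mt-Co1 at 1585. The other complex I subunits were lower, from 1019 for mt-Nd4, 1003 for mt-Nd1, 926 for mt-Nd2, 885 for mt-Nd6 and 864 for mt-Nd5 down to 588 for mt-Nd4l, and mt-Atp8, a small ATP synthase subunit, was at 904.

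TPM divides instead by an effective length, the part of a transcript in which a fragment can start, and it placed the shortest mRNAs higher. mt-Atp8 is 204 bases long, and its effective length was 52.3 to 59.9 bases in batch 1, 41.0 to 46.0 in 4 libraries of batch 2 and 10.4 in NC replicate 1 of batch 2. Its TPM was 38622 in that library and 3837 in NC replicate 2. By median TPM with copies in batch 1, mt-Atp6 stood at 6862, mt-Nd3 at 6159, mt-Co2 at 6103 and mt-Atp8 at 4993, while mt-Nd5 was lowest at 1499. Some neighbours in the TPM order traded places between libraries: mt-Cytb was above mt-Co3 in 10 of 15, mt-Nd6 above mt-Nd4l in 8 and mt-Nd4l above mt-Nd4 in 11. Others kept their order in 15 of 15, such as mt-Co2 above mt-Atp8 and mt-Nd2 above mt-Nd5.

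Together, the 13 mRNAs took 1.23% to 2.01% of all estimated counts in batch 1 and 1.36% to 1.88% in batch 2. NC of batch 1 was at 1.77%, 1.59% and 1.81%, I0-E0 at 1.23%, 2.01% and 1.498%, I0-E2 at 1.37%, 1.56% and 1.60%, I0-E4 at 1.35%, 1.89% and 1.33% and I2-E2 at 1.81%, 1.74% and 1.83%. The lowest and the highest library of batch 1 were thus replicates of 1 group, I0-E0, and differed by 1.64 times. In batch 2, NC was at 1.46% and 1.36% and I3-E3-SRS at 1.53%, 1.88% and 1.41%, and these groups overlapped. In bulk RNA such as this, fewer cells of a kind and less RNA per cell cannot be told apart.

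Against a mean share of 1.72% ± 0.118 in NC of batch 1, the means were 1.58% ± 0.400 in I0-E0, 1.51% ± 0.124 in I0-E2, 1.52% ± 0.320 in I0-E4 and 1.79% ± 0.0467 in I2-E2 (SD, n = 3 each), and exact two-sided permutation tests gave p = 0.60, 0.20, 0.40 and 0.60. Such a test of 3 against 3 cannot go below 0.10. That value was reached by I2-E2 against I0-E2: all 3 libraries of I2-E2 lay above all 3 of I0-E2, by 0.282 percentage points on average, or 0.273 with copies. Over the 12 exposed libraries of batch 1 the mean was 1.60% ± 0.255 (exact permutation p = 0.44 against NC). In batch 2 the means were 1.60% ± 0.243 (n = 3) in I3-E3-SRS and 1.41% ± 0.0665 (n = 2) in NC, with an exact permutation p of 0.40, where 0.20 is the smallest possible. As a percentage of summed TPM the direction turned: I3-E3-SRS was at 4.35% and NC at 4.52%, and in batch 1 I2-E2 was at 4.44% and NC at 4.45%. In batch 2 this measure parted the controls, with NC replicate 1 at 5.49% and NC replicate 2 at 3.55%. The I3-E3-SRS libraries were at 4.12%, 5.03% and 3.89%, all above NC replicate 2. In NC replicate 1, mt-Atp8 alone was at 38622 TPM. The difference of I0-E0 from NC, -0.144 percentage points of counts, was 0.0321 without I0-E0 replicate 1.

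**Figure D2:**
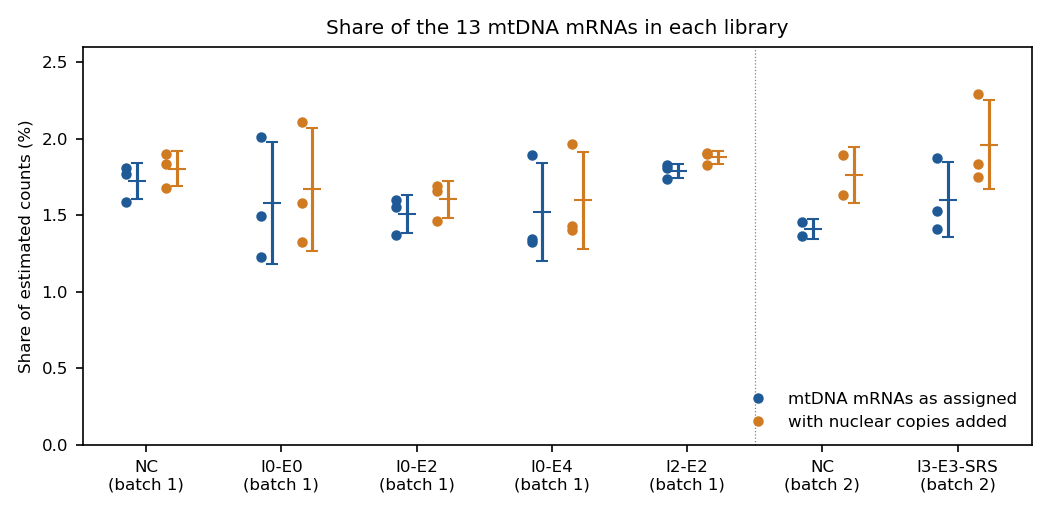
Share of the 13 mtDNA mRNAs in all estimated counts (percent) for each library by group, as assigned and with the counts of nuclear copies added; points are libraries and bars are mean ± SD. The I0-E0 libraries span 1.23% to 2.01%, and those of I2-E2 lie between 1.74% and 1.83%.

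In batch 1 the 13 mRNAs moved largely together from library to library. CPM here is counts per 1000000 of the library size scaled by edgeR's TMM factors. On the log2 CPM scale their median deviation from the batch mean was -0.41 in I0-E0 replicate 1 and 0.33 in I0-E0 replicate 2. Once the mean deviation of a library was taken out, the SD over the 13 was 0.088 to 0.17 in batch 1. The 23 nuclear factors did not share these shifts, with library medians of -0.073 to 0.073 in batch 1 and -0.027 to 0.034 in batch 2. In NC replicate 1 of batch 2 the SD over the 13 was 0.48, against 0.09 to 0.27 in the other 4 libraries. The median deviations of the 13 in batch 2 were 0.0059 and -0.15 in NC and -0.028, 0.29 and -0.045 in I3-E3-SRS. Only I3-E3-SRS replicate 2 had a shift larger than its SD, so a common movement was not seen across batch 2.

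The biological coefficient of variation (BCV), which measures how far replicates differ beyond counting error, had a median of 13.3% for the mitochondrial mRNAs in batch 1 (range 11.9% to 18.4%), 6.63% for the nuclear factors and 7.89% for all genes tested. Of the 2518 genes at 100 CPM or more, 98.7% had a BCV under that of the mitochondrial median. In batch 2 the medians were 12.3%, 7.78% and 9.40%, and 95.5% of 2550 such genes were lower. With reads as assigned, mt-Nd4 had the highest BCV of the 13 in batch 1, and mt-Atp8, at 43.7%, in batch 2. Across the 15 libraries of batch 1 the share had a Pearson r of -0.34 with the library total (permutation p = 0.22, adjusted 0.44) and a Spearman rho of -0.22 (permutation p = 0.43, adjusted 0.43). With the number of genes that had a read, the other measure tried, r was -0.24 (permutation p = 0.46, adjusted 0.46) and rho -0.30 (permutation p = 0.28, adjusted 0.43). Without the 2 libraries farthest from the median, r was -0.14 in both.

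**Figure D3:**
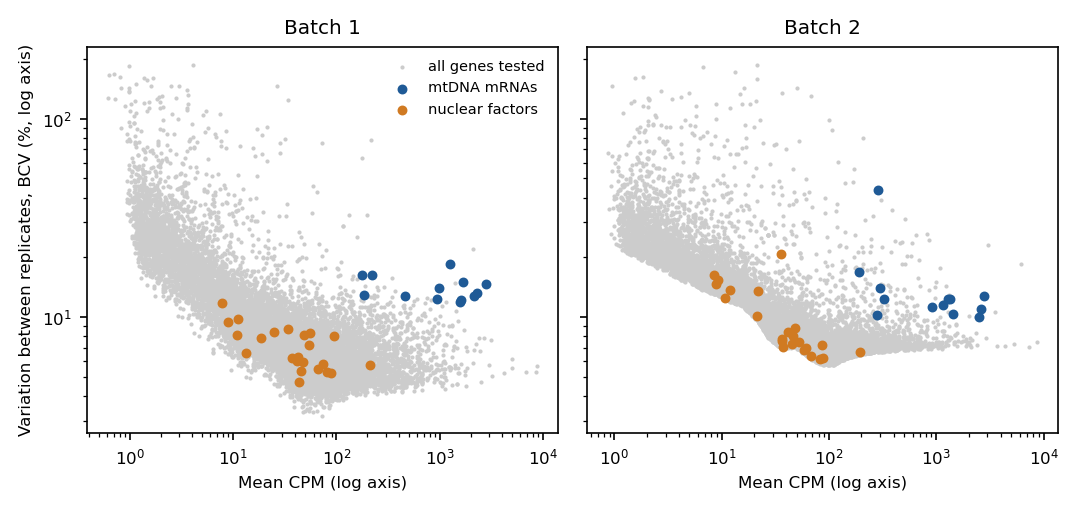
Biological coefficient of variation between replicates (percent, log axis) against mean CPM (log axis) for all genes tested in grey, the 13 mtDNA mRNAs in blue and the 23 nuclear factors in orange. The mtDNA mRNAs lie above most genes of their level, with a median of 13.3% in batch 1 and 12.3% in batch 2.

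I0-E0, the lowest fluency, was compared with NC to ask whether a mild imaging setting alters expression. None of the 36 members passed the adjusted threshold (background 0% of all genes), and 1 had an unadjusted p under 0.05, beside 3.36% of all genes. The mitochondrial mRNAs had log2 fold changes of -0.30 to -0.029, all 13 under 0, with a median of -0.09 beside 0.0035 for all genes. Without I0-E0 replicate 1, the library with the lowest share, that median was 0.055; it was -0.27 without I0-E0 replicate 2 and -0.15 without NC replicate 2. mt-Nd4, a core subunit of complex I, was at 1414, 1275 and 1534 CPM in NC and 735, 1677 and 1021 in I0-E0 (log2 fold change -0.30, SE 0.21, unadjusted p = 0.18, adjusted p = 1.00). The exposed libraries thus lay on both sides of NC. With Gm28439 added, mt-Nd4 was at 1521, 1405 and 1716 CPM in NC and 1034, 1799 and 1334 in I0-E0. Its log2 fold change was then -0.16 (edgeR unadjusted p = 0.30).

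The member with the smallest p was Fastkd5, which is needed to cut mitochondrial precursors at junctions without a tRNA. It was at 11.4, 10.9 and 9.74 CPM in NC and 13.1, 12.8 and 16.3 in I0-E0 (log2 fold change 0.39, SE 0.16, unadjusted p = 0.023, adjusted p = 1.00). It was the 1 member with all exposed libraries above NC, as were 4.68% of all genes, and 0 members had them all below, against 4.36% of genes. Of its sequence words, 64.9% also occur in Ubox5, which overlaps it on the same strand. Pnpt1, polynucleotide phosphorylase, was at 93.0, 93.4 and 89.4 CPM in NC and 79.4, 90.9 and 82.1 in I0-E0, with overlapping groups (log2 fold change -0.13, SE 0.068, unadjusted p = 0.076, adjusted p = 1.00).

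I0-E2 kept this intensity with a longer dwelling time. Again 0 of 36 members passed (background 0%), and 0 had an unadjusted p under 0.05, against 3.36% of genes. All 13 mitochondrial mRNAs had log2 fold changes under 0, from -0.37 to -0.12. Their median was -0.18, or -0.15 with copies added and -0.092 without I0-E2 replicate 1. mt-Nd4, mt-Nd4l and mt-Nd5 had all I0-E2 libraries below all NC libraries, 3 of 36 members beside 5.4% of all genes, and 0 had them all above, beside 5.8%. mt-Nd4l, a small complex I subunit, was at 197, 189 and 216 CPM in NC and 154, 160.5 and 153 in I0-E2 (log2 fold change -0.37, SE 0.19, unadjusted p = 0.070, adjusted p = 0.99). mt-Nd5, a proton-pumping complex I subunit, was at 1577, 1463 and 1805 CPM and 1298, 1434 and 1433 (log2 fold change -0.22, SE 0.13, unadjusted p = 0.12, adjusted p = 0.99). In mt-Nd5 the highest exposed library was just under the lowest control. mt-Nd3 was at 222, 227 and 229.8 CPM in NC and 161, 171 and 222 in I0-E2 (log2 fold change -0.29, SE 0.19, unadjusted p = 0.15, adjusted p = 0.99), and its log2 fold change was -0.082 with its copy added.

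I0-E4, the longest dwelling time, also had 0 of 36 members past the adjusted threshold (background 0%), and 1 with an unadjusted p under 0.05, against 7.91% of genes. That member was Rexo2, an oligoribonuclease that clears the shortest RNA fragments in mitochondria. It was at 49.3, 50.1 and 54.9 CPM in NC and 65.4, 64.1 and 57.1 in I0-E4, with all exposed libraries higher (log2 fold change 0.27, SE 0.11, unadjusted p = 0.022, adjusted p = 0.61). Tfam, which packages mtDNA and starts its transcription, also had all exposed libraries higher, at 106, 108 and 93.6 CPM against 92.3, 92.7 and 89.5 (log2 fold change 0.16, unadjusted p = 0.13). These are 2 of 36 members, beside 6.66% of genes, and 0 members had all libraries lower, beside 6.03%. The mitochondrial mRNAs had a median log2 fold change of -0.16 (-0.39 to 0.12), with 11 of 13 under 0. That median was -0.17 with copies added. It was -0.088 without I0-E4 replicate 1, -0.34 without replicate 2 and -0.085 without replicate 3. mt-Nd4l was at 141, 195 and 126 CPM in I0-E4, with 1 library inside the NC range (log2 fold change -0.39, SE 0.19, unadjusted p = 0.059, adjusted p = 0.62). Polg2, the accessory subunit of the mtDNA polymerase, was at 6.38, 6.18 and 8.35 CPM in NC and 7.36, 10.8 and 8.31 in I0-E4, with overlapping groups (log2 fold change 0.34, SE 0.19, unadjusted p = 0.10, adjusted p = 0.65).

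I2-E2 raised the intensity at the short dwelling time. Against NC, 0 of 36 members passed (background 0%), and 1, Fastkd5, had an unadjusted p under 0.05, against 7.19% of genes. Fastkd5 was at 7.22, 11.02 and 6.99 CPM, with replicate 2 inside the NC range of 9.74 to 11.4 (log2 fold change -0.38, SE 0.17, unadjusted p = 0.038, adjusted p = 0.68). The mitochondrial mRNAs had a median log2 fold change of 0.028 (-0.11 to 0.29), or 0.095 with copies added, with 9 above 0 and 4 below. Over the 6 mRNAs with at least 80% of their own sequence, a set chosen after seeing the data, the median was 0.17. Over all 13, the median turned to -0.034 without NC replicate 2; it was 0.065 without NC replicate 3, and 0.073, 0.08 and 0.0019 without I2-E2 replicates 1, 2 and 3. mt-Nd2 and mt-Nd5 had all I2-E2 libraries above NC, 2 of 36 members beside 6.22% of genes. Mterf4, which guides an rRNA methyltransferase to the mitochondrial ribosome, was the 1 member with all of them below, beside 5.84% of genes. It was at 7.08, 8.35 and 7.70 CPM against 10.5, 8.36 and 9.28, so the groups all but touched (log2 fold change -0.29, SE 0.17, unadjusted p = 0.10, adjusted p = 0.73). mt-Nd6, a complex I subunit, was at 572, 624 and 469.8 CPM against 419, 431 and 512, with overlapping groups (log2 fold change 0.29, SE 0.15, unadjusted p = 0.063, adjusted p = 0.71).

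I2-E2 and I0-E2 received the same fluency, given at a high intensity in a short time or at a low intensity in a longer one. All 13 mitochondrial mRNAs were higher in I2-E2 by the fitted estimate, from 0.024 for mt-Co3 to 0.47 for mt-Nd6, with a median of 0.32 beside 0.0065 for all genes, or 0.22 with copies added. At the adjusted threshold 0 of 36 passed (background 0%), and at an unadjusted p under 0.05, 4 of 36 were counted beside 5.25% of all genes. mt-Nd5 was at 1905, 1929 and 1811 CPM in I2-E2 and 1298, 1434 and 1433 in I0-E2, without overlap (log2 fold change 0.44, SE 0.13, unadjusted p = 0.0042, adjusted p = 0.94). mt-Nd6 was at 572, 624 and 469.8 CPM against 384, 401 and 420.4, again without overlap (log2 fold change 0.47, SE 0.15, unadjusted p = 0.0054, adjusted p = 0.94). Both keep most of their sequence to themselves, and their log2 fold changes were 0.44 and 0.47 with copies added. In an edgeR fit of these 2 groups alone, mt-Nd5 had an adjusted p of 0.046, and 2 of 11865 genes (0.0169%) were called.

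mt-Co2, an oxidase subunit whose whole sequence is shared, was at 2043, 2137 and 1762 CPM in I2-E2 and 1161, 1379.8 and 1893 in I0-E2, with overlapping groups. Its log2 fold change was 0.42 (unadjusted p = 0.025), or 0.22 with the copy added (unadjusted p = 0.086). mt-Nd4 went the other way. Its log2 fold change was 0.34 (edgeR unadjusted p = 0.12), or 0.38 with Gm28439 added (unadjusted p = 0.018, adjusted p = 0.94). With reads as assigned, Fastkd5 was the remaining member with a small p (log2 fold change -0.41, SE 0.17, unadjusted p = 0.023, adjusted p = 0.94). All libraries of I2-E2 lay above those of I0-E2 for mt-Nd2, mt-Nd4, mt-Nd4l, mt-Nd5, mt-Nd6 and mt-Cytb, 6 of 36 members beside 5.42% of all genes. Because the mRNAs moved largely together between libraries of batch 1, these 6 are not independent. mt-Cytb was at 3186, 3052 and 3553 CPM in I2-E2 and 2456, 2791 and 2575 in I0-E2 (log2 fold change 0.32, unadjusted p = 0.071), and mt-Nd2, another complex I subunit, at 1094, 1254 and 1076 against 792, 971 and 967 (0.33, unadjusted p = 0.058). Tfb2m and Fastkd1 had all of them below, 2 of 36 beside 4.96%. The nuclear factors had a median of -0.047.

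Across the 5 groups of batch 1, a test for any difference found 0 of 36 members past the adjusted threshold (background 0%) and 2 with an unadjusted p under 0.05, against 4.23% of genes. These were Fastkd5 (edgeR unadjusted p = 0.0044) and mt-Nd5 (unadjusted p = 0.044), followed by mt-Nd6 at 0.060, each with an adjusted p of 0.98. When genes of low count were kept in the fit, edgeR called 8 of 36 members here, all of them mitochondrial mRNAs, among 353 of 25283 genes (1.4%). It then called 8 in I2-E2 against I0-E2, beside 0.494% of all genes. Against NC it called 2 in I0-E0 (all genes 0.435%), 3 in I0-E2 (0.182%), 4 in I0-E4 (0.68%), 1 in I2-E2 (0.633%) and 1 in I3-E3-SRS (0.96%), again all of them mitochondrial mRNAs. Copies were not added in this fit. The call in I3-E3-SRS was mt-Nd3 (log2 fold change 0.78). Those in I2-E2 against I0-E2 included mt-Co2, mt-Nd3, mt-Nd4 and mt-Nd4l, which share much of their sequence with copies. The log2 fold change of mt-Nd5 in I2-E2 against I0-E2 was then 0.42 in place of 0.44.

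**Figure D4:**
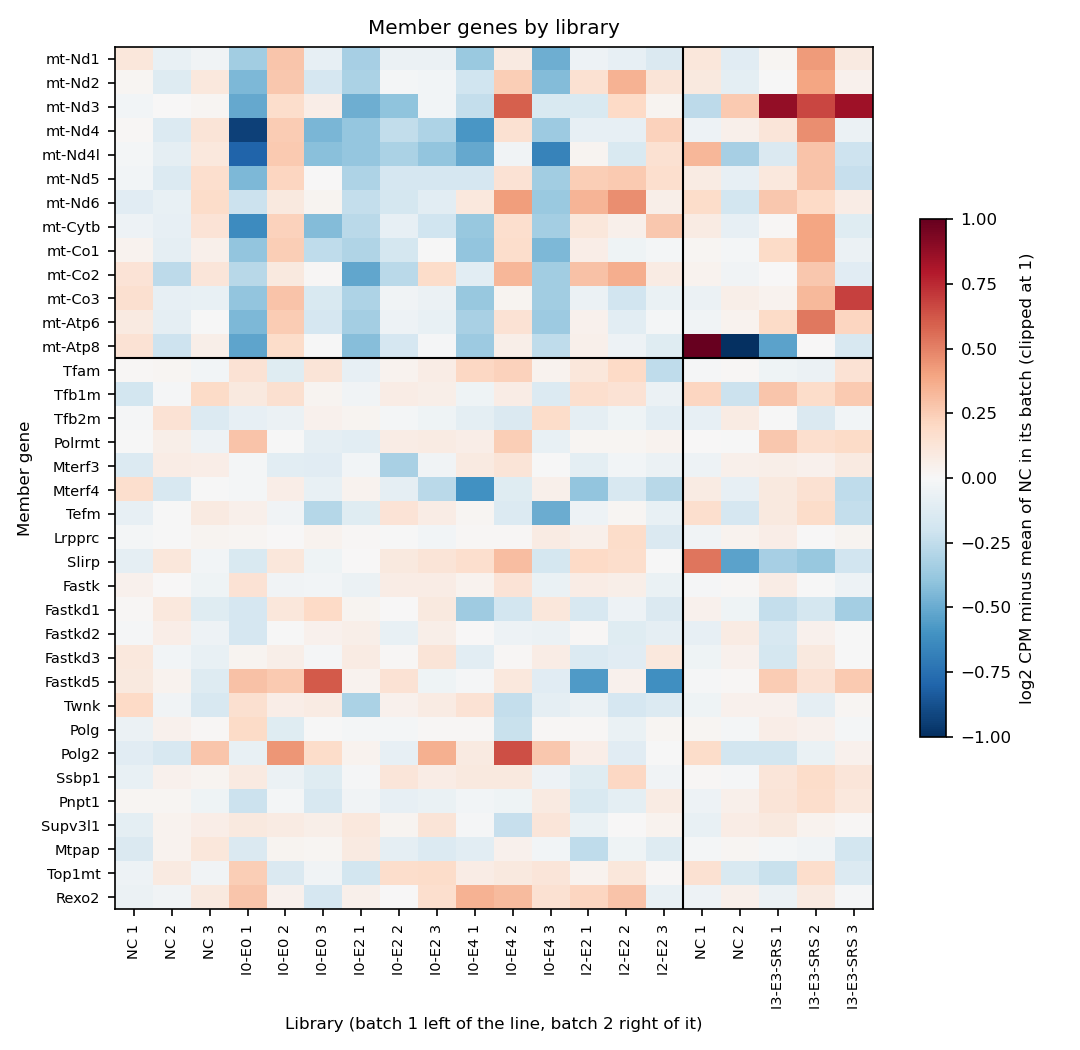
Log2 CPM of each of the 36 member genes (rows) in each of the 20 libraries (columns), minus the mean log2 CPM of the NC libraries of the same batch; red is higher and blue lower, clipped at 1. In batch 1 the 13 mtDNA mRNAs change colour largely together by library, as in I0-E0 replicates 1 and 2, and mt-Atp8 differs between the 2 NC libraries of batch 2.

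I3-E3-SRS was compared with NC of batch 2, of which replicate 1 stood apart. Log2 fold changes of named members without it are therefore also given, except where copies were added. The fit without replicate 1 has 1 control library, which is assumed to vary like the rest. None of the 36 passed (background 0% of 12031 genes), and 3 had an unadjusted p under 0.05, against 4.02% of genes. The mitochondrial mRNAs had a median log2 fold change of 0.17 (-0.69 to 0.77), with 11 above 0 and 2 below. Their median was 0.13 with copies added. It was 0.28 without NC replicate 1, 0.06 without NC replicate 2 and 0.034 without I3-E3-SRS replicate 2. mt-Nd3, a small complex I subunit, was at 186 and 267 CPM in NC and 409.6, 354 and 401 in I3-E3-SRS, without overlap (log2 fold change 0.77, SE 0.15, unadjusted p = 0.0010, adjusted p = 0.95). Its log2 fold change was 0.54 without NC replicate 1. With the reads of Gm28438 added, the levels were 479 and 448 CPM in NC and 439, 557 and 527 in I3-E3-SRS. The groups then overlapped, and the log2 fold change was 0.13 (unadjusted p = 0.23).

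mt-Atp6 was at 2127 and 2234 CPM in NC and 2489.7, 3143 and 2534 in I3-E3-SRS (log2 fold change 0.32, SE 0.10, unadjusted p = 0.016, adjusted p = 1.00), and its log2 fold change was 0.28 without NC replicate 1. With Gm10925 added it was at 2979 and 2257 against 2527, 3175 and 2639, with overlap and a log2 fold change of 0.087 (unadjusted p = 0.54). The overlap was with NC replicate 1, where Gm10925 held 28.6% of the pair, and all I3-E3-SRS libraries lay above NC replicate 2. Polrmt, the mitochondrial RNA polymerase, shares no sequence words with another gene. It was at 53.6 and 53.3 CPM in NC and 64.5, 60.05 and 61.0 in I3-E3-SRS (log2 fold change 0.21, SE 0.069, unadjusted p = 0.018, adjusted p = 1.00), and its log2 fold change was 0.21 without NC replicate 1. For mt-Co3, the pair with Gm28437 was at 2381 and 2289 CPM in NC and 2453, 3157 and 2876 in I3-E3-SRS, without overlap (log2 fold change 0.28, unadjusted p = 0.027).

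Of the members, mt-Atp8 differed most between the controls, at 642 and 112 CPM, with 185, 269 and 240.4 in I3-E3-SRS (log2 fold change -0.69, 95% interval -2.05 to 0.67). Without NC replicate 1 its direction turned (log2 fold change 1.05, adjusted p = 0.11). Slirp, the partner of Lrpprc, was likewise at 57.0 and 27.0 CPM in NC and 31.1, 30.1 and 34.4 in I3-E3-SRS, with a log2 fold change of -0.36 that turned to 0.24 without NC replicate 1. Of its sequence words 91.2% also occur in Snw1, which overlaps it on the other strand. Without NC replicate 2, so against the library that stood apart, Slirp, mt-Atp8 and mt-Nd3 were called, 3 of 36, among 671 of 12737 genes (5.27%). Without NC replicate 1, 0 members and 0 genes were called. All I3-E3-SRS libraries lay above both controls for mt-Nd3, mt-Atp6, Polrmt, Fastkd5, Ssbp1 and Pnpt1, 6 of 36 members beside 8.78% of genes, and below both for Fastkd1, 1 of 36 beside 9.82%. Pnpt1 was at 74.6 and 79.8 CPM in NC and 84.4, 87.1 and 83.0 in I3-E3-SRS (log2 fold change 0.13, unadjusted p = 0.071, or 0.087 without NC replicate 1), and Fastkd1 at 24.4 and 22.9 and 20.1, 20.9 and 18.7 (-0.25, unadjusted p = 0.053, or -0.21). Ssbp1, at 34.8 and 34.3 against 37.5, 39.2 and 37.6, had a log2 fold change of 0.14 (unadjusted p = 0.10), or 0.15 without NC replicate 1.

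**Figure D5:**
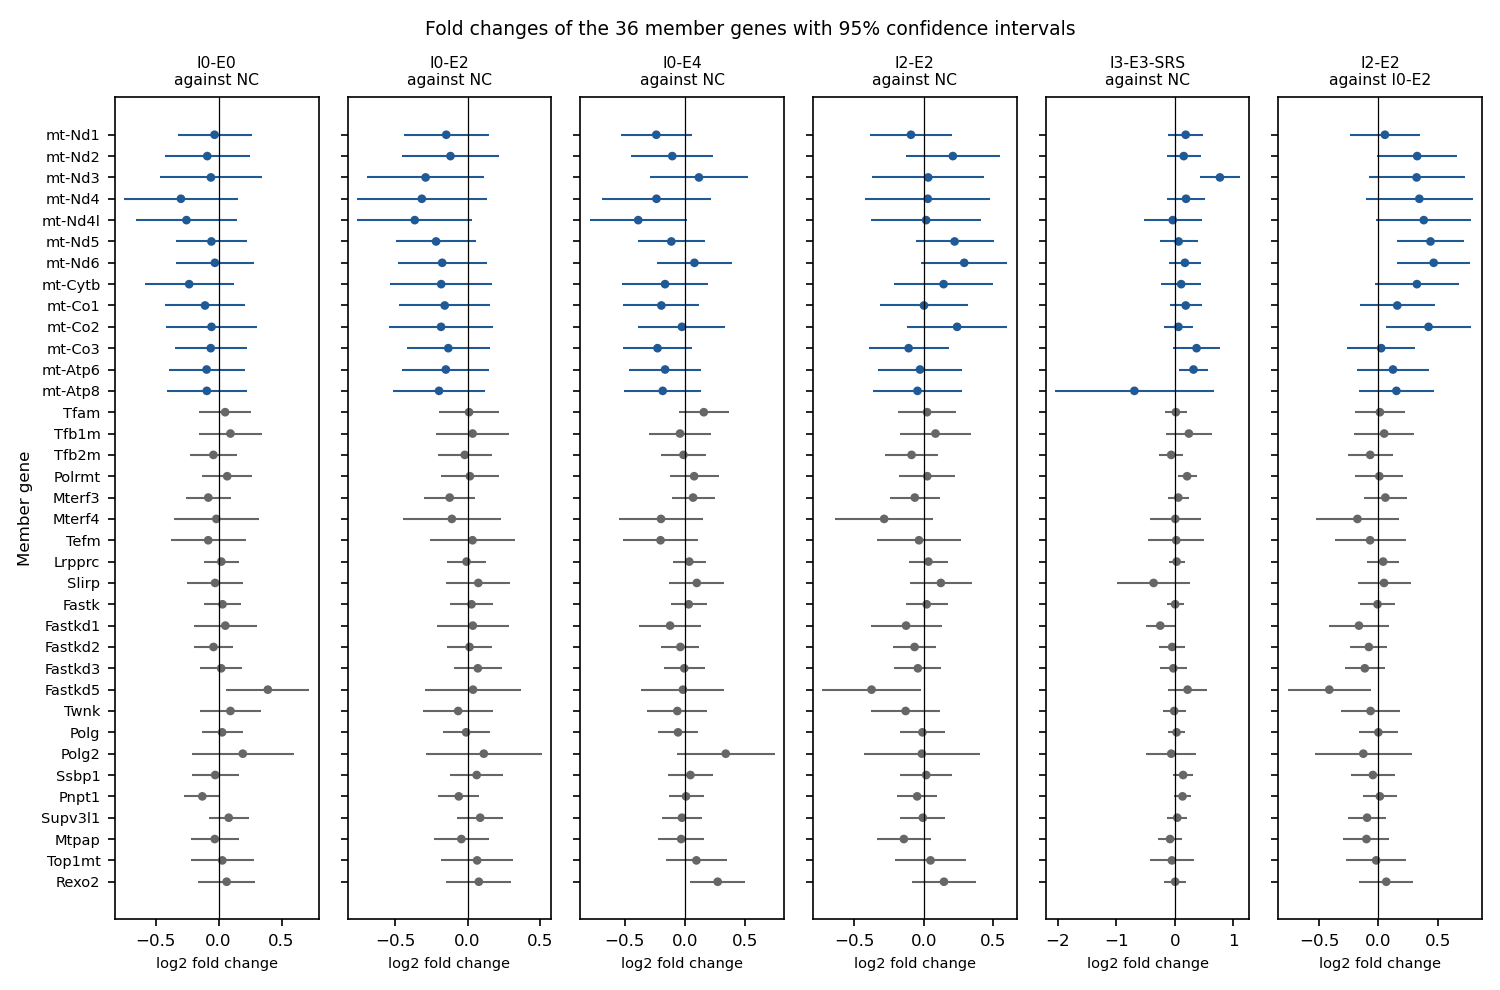
Log2 fold change (horizontal axis, with its own range in each panel) of the 36 member genes in the 6 comparisons; points are estimates, lines are 95% confidence intervals, mtDNA mRNAs are blue and nuclear factors grey. In I2-E2 against I0-E2 all 13 mtDNA mRNAs lie to the right of 0, and mt-Atp8 has a wide interval in I3-E3-SRS against NC.

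Among the 8 transcription and nucleoid factors, Tfam had the highest level per length in batch 1, with a median of 128 TPM (range 111 to 154). Mterf3, a regulator of transcription and ribosome assembly, was at 62.2 TPM, Tfb2m, which opens the promoter with Polrmt, at 33.5 and Polrmt itself at 30.98. Tfb1m, an rRNA methyltransferase, was at 17.2, the elongation factor Tefm at 16.3, the topoisomerase Top1mt at 15.5 and Mterf4 at 10.8. Their log2 fold changes were -0.29 to 0.16 in the 4 settings of batch 1 against NC and -0.062 to 0.24 in I3-E3-SRS. Tfb1m, at the upper end of the latter, was at 12.8, 12.01 and 12.6 CPM against 12.2 and 9.12, with overlapping groups, and its log2 fold change was 0.45 without NC replicate 1.

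Of the replication proteins, Ssbp1, which coats single-stranded mtDNA, was at a median of 75.1 TPM in batch 1, the polymerase Polg at 33.0, the helicase Twnk at 15.4 and Polg2 at 7.34. Their log2 fold changes ran from -0.13 to 0.34 in batch 1 against NC and from -0.061 to 0.14 in I3-E3-SRS. Twnk was at 39.3, 33.4 and 30.6 CPM in NC of batch 1 and 32.9, 30.6 and 31.1 in I2-E2. TPM and CPM parted for Polg in NC replicate 1 of batch 2, where its TPM was 199 against 32.4 in NC replicate 2, while its CPM was 67.3 and 65.8.

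The 11 RNA stability and processing factors include Lrpprc, which with Slirp protects mitochondrial mRNAs and promotes their polyadenylation. Lrpprc was at 204, 206 and 210.5 CPM in NC of batch 1 and 208, 208 and 219 in I0-E4, a narrow range over these libraries. In I2-E2 it spread more widely, with a mean of 212 CPM and an SD of 23.7. In TPM, Slirp had a batch 1 median of 174, Rexo2 of 98.4, Fastk, which is needed for mt-Nd6 mRNA, of 91.7 and Lrpprc of 77.6. The degradosome partners Pnpt1 and Supv3l1, a nuclease and a helicase, were at 52.3 and 45.9, and Mtpap, the mitochondrial poly(A) polymerase, was at 21.8. Of the Fastk family, Fastkd3 was at 45.4, Fastkd2, which binds the large rRNA, at 36.4, Fastkd1 at 14.7 and Fastkd5 at 5.74. Apart from Fastkd5 and Rexo2, none of the 11 had an unadjusted p under 0.05 in a comparison with NC. The words of Fastk are shared in part with Slc4a2 (23.0%), those of Mterf4 with Sned1 (34.4%) and those of Tfb2m with the pseudogene Gm1818 (35.2%).

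The nuclear genes that translate mitochondrial mRNAs were also counted. Of the 50 large subunit proteins of the mitochondrial ribosome, 34 were estimated higher than in NC in I0-E0, 33 in I0-E2, 42 in I0-E4 and 44 in I2-E2, beside 51.4%, 50.2%, 50.7% and 51.2% of all genes. Their median log2 fold changes were 0.033, 0.046, 0.12 and 0.085. Of the 33 small subunit proteins, 16, 22, 29 and 22 were, with medians of -0.0071, 0.028, 0.10 and 0.036. All of these counts are against the same NC libraries, so they are not independent of each other. Whether the subunit genes move together between libraries was not tested. At an unadjusted p under 0.05, 0 large and 0 small subunit genes were higher in I0-E0 (all genes 1.84%), 2 and 0 in I0-E2 (1.51%), 7 and 2 in I0-E4 (4.16%) and 6 and 1 in I2-E2 (3.84%). In the other direction 1 large subunit gene was counted, in I0-E0, and 0 passed after adjustment in any of these. In I3-E3-SRS 25 large and 24 small subunit genes were estimated higher, beside 48.6% of all genes, with medians of -0.0021 and 0.054. Mrpl2, the large subunit gene with the smallest p among the 5 groups (unadjusted p = 0.017), was at 51.0 ± 0.485 CPM in NC and 61.0 ± 4.97 in I0-E4.

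In the other lists, the gene with the smallest unadjusted p among the 5 groups was Mrps28 for the small subunit (0.072), Iars2 for 17 mitochondrial aminoacyl-tRNA synthetases (0.073) and Tsfm, an elongation factor, for 11 translation factors (0.046). It was Trmt5 for 22 tRNA processing and RNA modification genes (0.12), the ligase Lig3 for 19 further mtDNA maintenance genes (0.11) and Myc for 8 tested of 10 biogenesis regulators (0.14). Each of these, and Mrpl2, had an adjusted p of 0.98 from edgeR. The 24 mitochondrial rRNAs and tRNAs were not analysed here.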

How the data were processed

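RNA of N2A cells was purified with RNeasy columns and made into NEBNext Ultra II poly(A) libraries. The authors quantified reads with Salmon (version not given in the sources used here) and deposited an estimated count and a TPM value of each transcript in each library. Here transcripts were matched by identifier to GENCODE vM21 (GRCm38), 105915 of 107368 (98.6%), and summed to 34083 genes; unmatched transcripts held 0.664% to 0.748% of counts. Estimated counts were rounded and tested with edgeR 4.0.16 (quasi-likelihood, TMM, R 4.3.3) within each batch, after filterByExpr with a minimum count of 10 (12296 and 12031 genes), with Benjamini-Hochberg adjustment over all genes and a threshold of 0.05. Library totals were 5473588 to 12698770 estimated counts, and counting error weighs most on genes of low count. Shares were compared by exact two-sided permutation tests, and 31-base words were used to find shared sequence and copies. Alternatives included limma 3.58.1, DESeq2 1.42.0, TPM with a pseudocount of 0.5, no filter, added copies and leaving out each library. In each comparison the 3 members with the smallest unadjusted p, and any past the threshold, are given with full statistics; other members are given by level, and genes of further lists by counts and the smallest p among the batch 1 groups. mt-Co1, mt-Co2, mt-Co3, mt-Nd1, mt-Nd2, mt-Nd4, mt-Cytb, Pnpt1, Ssbp1, Fastkd1, Tfam, Tfb1m, Twnk, Polg, Slirp and mt-Atp8 were given extra values after these were seen. The members and lists were chosen with earlier results of these data known. Scripts were tested on simulated data.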

Additional observations from a re-analysis of the deposited data

Results flagged for a closer look

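Every I2-E2 library lay above the NC mean and every I0-E2 library below it in 3 measures of batch 1, which flagged these for a closer look. The share and the members with the smallest p were searched over all pairs of exposed groups. Both flagged mRNAs, mt-Nd5 and mt-Nd6, are part of the share and were picked for their small p in this comparison, so the 3 are not independent. For the share of the 13 mtDNA mRNAs the means differed by 0.282 percentage points, with I2-E2 libraries at 0.0150 to 0.104 points above NC and I0-E2 libraries at -0.355 to -0.121. For mt-Nd5 the difference was 0.44 on the log2 CPM scale (0.17 to 0.26 against -0.31 to -0.17), and for mt-Nd6 it was 0.46 (0.055 to 0.46 against -0.24 to -0.11). The direct comparison of the 2 groups gave an exact permutation p of 0.10 for the share, the smallest possible, and an adjusted p of 0.94 from edgeR for mt-Nd5 and mt-Nd6.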

How the results depend on the processing

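Without the filter on low counts, members called became 2 in I0-E0, 3 in I0-E2, 4 in I0-E4, 1 in I2-E2 and 1 in I3-E3-SRS against NC, 8 in I2-E2 against I0-E2 and 8 for any difference in batch 1, from 0 each. Over all genes it called 46 to 353 (0.182% to 1.4%), and the cause was not tested. Fitting only the 2 groups called 1 member, mt-Nd5, in I2-E2 against I0-E2, among 2 of 11865 genes (0.0169%). On log2 TPM the nuclear factors' medians were -0.024 in I0-E0, -0.078 in I0-E2, -0.096 in I0-E4, -0.12 in I2-E2 and 0.26 in I3-E3-SRS. The mtDNA mRNAs' median in I3-E3-SRS was 0.69 on this scale. In TPM, NC replicate 1 of batch 2 was below NC replicate 2 for every mtDNA mRNA except mt-Nd4l and mt-Atp8. For example, mt-Nd1 was at 1019 and 1970 and mt-Co1 at 1180 and 2597. In the other direction, mt-Nd4l was at 2959 and 2428 and mt-Atp8 at 38622 and 3837. The log2 TPM median without NC replicate 1 was not tested. As a percent of summed TPM, the share difference turned to -0.0128 points in I2-E2 and -0.174 in I3-E3-SRS against NC. By this measure NC replicate 1 of batch 2 was at 5.49% and NC replicate 2 at 3.55%. The mtDNA mRNAs' median was 0.17 in I2-E2 with only those of at least 80% own sequence (chosen after seeing the data) and 0.22 in I2-E2 against I0-E2 with copies added. Leaving out 1 library at a time gave 0 to 3 members called in I3-E3-SRS (3 without NC replicate 2, where 671 genes were called, 5.27% of those tested), medians of the mtDNA mRNAs of -0.27 to 0.055 in I0-E0, -0.24 to -0.092 in I0-E2, -0.34 to -0.085 in I0-E4, -0.034 to 0.08 in I2-E2 and 0.034 to 0.28 in I3-E3-SRS against NC and 0.23 to 0.37 in I2-E2 against I0-E2, nuclear medians of 0.0087 to 0.035 in I3-E3-SRS and -0.060 to 0.0017 in I2-E2 against I0-E2, and a share difference of -0.362 to 0.0321 points in I0-E0, above 0 only without I0-E0 replicate 1. Replicate numbers did not pair the samples (correlations of deviations -0.077 to 0.14). The replicate block left members called at 0 and gave a nuclear median of 0.034 in I3-E3-SRS. Its share differences were 0.282 in I2-E2 against I0-E2 and 0.290 in I3-E3-SRS against NC. The last value uses only I3-E3-SRS replicates 1 and 2, since NC of batch 2 has no replicate 3. Leaving out 1 library at a time, without a block, also gave at most 0.290 there. The planned relation of the share to nuclear-retained RNAs was not run, since 1 of the 6 listed was analysed.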
